A study of Mus musculus with 10 samples.

Results

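The interferon response and MHC class I genes are 43 of the 31053 mouse genes counted in this series, namely 30 interferon-induced genes and 13 genes of antigen presentation. They are listed by name as known genes of the 2 pathways. Their transcripts were read as UMI counts (unique molecular identifiers, each standing for a captured transcript molecule) in 8 single-cell libraries of intestinal organoids and 2 of colonic crypts. The organoids were grown in Matrigel from crypts of the proximal small intestine, and the labels name no strain or genotype for these libraries. ENR-organoids (3 libraries, passages 2, 7 and 3) were kept in medium with Noggin, EGF and R-Spondin 1. The Hyper medium (3 libraries, passages 1, 6 and 3) had EGF, FGF2 and conditioned medium of R-Spondin 1 as its proteins, and the small molecules LDN193189, VPA, EPZ6438, Pexmetinib and GSK-3 Inhibitor XV. The -VE-organoids (2 libraries, passages 1 and 6) had the Hyper medium without VPA, which inhibits histone deacetylases, and without EPZ6438, which inhibits the histone methyltransferase EZH2. Hyper-organoid libraries 1 and 2 and both -VE-organoid libraries were derived from ENR-organoids, whereas Hyper-organoid library 3 and ENR-organoid library 3 came from primary crypts. A library each was made of colonic crypts of normal mice and of mice given dextran sulfate sodium (DSS), a chemical that injures the colonic epithelium.

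Interferons are cytokines that cells release on infection or injury. Type I and type III interferons act on interferon-stimulated response elements (ISRE) before antiviral genes, and type II interferon acts on gamma-activated sites (GAS). MHC class I molecules show peptides from inside the cell to CD8+ T cells, and interferon is known to raise the heavy chains, the peptide transporter and the immunoproteasome that feed them. In the gut epithelium this response is known for its part in defence against viruses and in the contact of epithelial cells with lymphocytes.

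Promoter stretches of 7 members are shown because these genes carry the main contrasts of the data: Isg15, Ifit1 and Bst2 were lower in the DSS than in the normal colonic library, Bst2, Gbp7, Igtp and Ifitm1 were called higher in Hyper-organoids, and B2m was not called across all cells. Each is the 150 bases before a transcript start of the gene in RefSeq on build GRCm38.p6, 5′ to 3′ on the strand of the gene, with every ISRE core (GAAANNGAAA on either strand) in capitals. They lie at chr4:156200819-156200968, minus strand (Isg15), chr19:34640739-34640888, plus strand (Ifit1), chr8:71537473-71537622, minus strand (Bst2), chr3:142530186-142530335, plus strand (Gbp7), chr11:58199406-58199555, plus strand (Igtp), chr2:122147537-122147686, plus strand (B2m) and chr7:140967926-140968075, plus strand (Ifitm1).
Isg15: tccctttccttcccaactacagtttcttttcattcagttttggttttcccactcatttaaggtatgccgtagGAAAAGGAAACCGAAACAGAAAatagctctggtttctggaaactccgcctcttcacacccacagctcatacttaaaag
Ifit1: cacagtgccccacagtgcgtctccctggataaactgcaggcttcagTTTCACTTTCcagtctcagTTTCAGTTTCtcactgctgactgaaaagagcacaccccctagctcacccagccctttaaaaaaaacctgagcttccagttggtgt
Bst2: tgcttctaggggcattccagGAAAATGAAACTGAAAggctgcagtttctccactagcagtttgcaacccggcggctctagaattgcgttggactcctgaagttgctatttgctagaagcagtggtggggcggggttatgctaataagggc
Gbp7: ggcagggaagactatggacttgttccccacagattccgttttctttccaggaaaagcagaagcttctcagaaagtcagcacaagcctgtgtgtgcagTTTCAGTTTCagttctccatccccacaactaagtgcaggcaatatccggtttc
Igtp: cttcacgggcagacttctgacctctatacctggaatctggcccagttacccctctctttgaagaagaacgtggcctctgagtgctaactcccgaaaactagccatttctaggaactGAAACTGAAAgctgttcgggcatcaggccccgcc
B2m: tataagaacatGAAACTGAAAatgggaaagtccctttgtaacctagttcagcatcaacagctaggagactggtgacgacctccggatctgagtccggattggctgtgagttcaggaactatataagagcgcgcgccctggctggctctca
Ifitm1: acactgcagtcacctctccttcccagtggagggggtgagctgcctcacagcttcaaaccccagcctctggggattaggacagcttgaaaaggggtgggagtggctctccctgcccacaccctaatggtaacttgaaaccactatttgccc

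Isg15 held 3 overlapping cores, Ifit1 and Bst2 held 2 each and Gbp7, Igtp and B2m held 1 each, while the Ifitm1 stretch held 0. The Ifitm1 stretch lies inside the gene as GENCODE annotates it (chr7:140967221-140969825), so the letters before its first start were not searched. RefSeq windows of 250 bases before to 50 bases after the start were found for 35 of the 43 members. The core was present in 14 of 32 windows of interferon-induced members (43.8%) and in 2 of 11 windows of antigen-presentation members (18.2%, those of B2m and H2-T23), against 3.44% of the 32851 windows of all genes. The GAS motif TTCNNNGAA was present in 31.2% of the interferon-induced windows and 9.09% of the antigen-presentation windows, against 8.3% of all windows. Psmb9 and Tap1 have overlapping windows. Some windows, such as those of Psmb8, Psmb9 and Tapbp, also lie inside the gene as GENCODE annotates it. A match is a description of the letters and not a measured binding site. A window without a match to these exact letters does not show that the gene lacks an element. No window was given for Tap2, Zbp1, Iigp1, Ifi27, Usp18, H2-Q1, Rtp4 and Nlrc5.

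The organoid libraries held between 1983 and 4293 kept cells and from 89124015 to 170019527 UMIs each. There were 1132 cells with 19906845 UMIs in the normal colonic library, and 1933 cells with 32397122 UMIs in that of DSS. Levels are given as CPM, UMIs of a gene per 1000000 UMIs (with TMM-adjusted totals for members over all kept organoid cells), and they are compared between libraries and not between genes. Epithelial markers summed to between 4762 and 5997 CPM in the organoids. Of the 14 leukocyte markers, 7 to 10 had a UMI in a given organoid library and their summed level was 4.67 to 6.23 CPM, with Ptprc at 0 UMIs in 7 of 8 libraries and S100a9 and Nkg7 at 0 in each. The 6 stromal markers summed to 0.53 to 0.84 CPM in Hyper-organoids and 0.04 to 0.11 CPM in the others, and their part in the differences was not tested. In the colon the leukocyte markers summed to 275 CPM in the normal library, where S100a8 and S100a9 were at 0, and to 2616 CPM in the DSS library. Cell classes are those of the deposited annotation. Of its markers, Chgb, Chga, Cck and Neurog3 were highest in the enteroendocrine class and Lgr5 in the stem class, whereas the stem markers Ascl2 and Olfm4 were highest in transit amplifying cells and Cd44 in the class labelled RSC, the goblet markers Tff3 and Muc2 in Paneth cells and the enterocyte progenitor marker Cfhr2 in enterocytes. Their shares differed between media: enterocyte progenitors were 486, 635 and 809 cells in ENR-organoids but 3, 3 and 2 in Hyper-organoids, and stem cells were 322, 317 and 229 against 1126, 1481 and 874. In sums over all kept cells, fewer cells of a class and less RNA per cell cannot be told apart, so fits inside a class are also given.

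Hyper-organoids held 12 interferon-induced genes above ENR-organoids, led by Ifitm1, Gbp7, Rtp4 and Bst2, while Stat2, Irf7, Irf9, Isg15 and Ifit1 were not called. Of 25 interferon-induced members that passed the filter on low counts, 12 were called higher and 0 lower, against 18.2% of all 16037 genes tested called higher and 4.75% lower (edgeR quasi-likelihood test, Benjamini-Hochberg adjusted p under 0.05 and at least 2-fold). Their median log2 fold change was 0.80, beside -0.01 for all genes tested. Of the 13 antigen-presentation members, 3 were called higher and 0 lower, with a median of 0.51. A further 3 interferon-induced and 5 antigen-presentation members passed the adjusted p below 2-fold on the higher side, and 1 interferon-induced member, Ifi35, on the lower side. The share of all genes that did so was not counted, so these numbers have no background beside them. Nlrc5, 1 of the 3 antigen-presentation members called, passed the filter only through its level in Hyper-organoids. Each of the 25 interferon-induced and the other 12 antigen-presentation members also reached it in at least 2 other libraries. The counts describe the members tested and not all 43. The members were chosen with earlier results of these data known, so their excess over all genes is no independent support here or below. Of 44 other interferon genes tested, 5 were called higher and 4 lower in this comparison, with a median of -0.01. The labels do not say that the libraries of a group came from separate animals or cultures, so every p-value measures only the spread between these libraries.

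Among the transcription factors, Irf1, which activates interferon-gamma and antigen-presentation genes, was the member called. Irf1 stood at 5.91, 5.74 and 5.29 CPM in the ENR-, 8.46 and 12.1 CPM in the -VE- and 8.00, 20.3 and 19.7 CPM in the Hyper-organoid libraries (libraries 1, 2 and 3 in order, here and for each gene that follows). It was called higher in Hyper- than in ENR-organoids (log2 fold change 1.5 ± 0.33 SE, edgeR adjusted p = 0.00467), although Hyper-organoid library 1 lay below both -VE-organoid libraries. The difference from -VE-organoids was 0.64 and was not called (edgeR adjusted p = 0.177). The factors of the type I response were not called. Irf7 stood at 1.64, 1.92 and 2.51 CPM in the ENR-, 1.48 and 1.28 CPM in the -VE- and 1.27, 1.22 and 1.77 CPM in the Hyper-organoid libraries, and the difference from ENR-organoids was -0.51 ± 0.22 (edgeR adjusted p = 0.0769). Irf7 was lower in Hyper-organoids in each of the 3 pairs of libraries of the same series (2, 6 or C in the library names), and with the series as a replicate block the difference was -0.51 ± 0.14 (edgeR adjusted p = 0.0185, below 2-fold). Inside stem cells and inside transit amplifying cells the fitted Irf7 difference was above 0, and it was not called in any class tested. Its mean was 0.763 CPM in ENR- and 0.837 CPM in Hyper-organoid transit amplifying cells, and 20.3 and 12.4 CPM in enteroendocrine cells. Enterocytes of ENR-organoids averaged 6.46 CPM, and Hyper-organoids held fewer of those cells. Irf9 stood at 3.13, 2.81 and 3.96 CPM in the ENR-, 3.29 and 3.12 CPM in the -VE- and 2.87, 3.01 and 3.63 CPM in the Hyper-organoid libraries, and Stat2 at 3.66, 3.73 and 4.31 CPM in the ENR-, 4.11 and 4.23 CPM in the -VE- and 4.41, 4.07 and 3.68 CPM in the Hyper-organoid libraries, with log2 differences between Hyper- and ENR-organoids of -0.06 ± 0.16 and 0.06 ± 0.11 (edgeR adjusted p = 0.773 and 0.7). The libraries of the 3 groups overlapped for Irf9 and Stat2. Irf8 was higher in every Hyper-organoid library by less than 2-fold (0.22 ± 0.05, edgeR adjusted p = 0.00398).

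Of the antiviral RNA effectors, 4 of 7 tested members were called higher in Hyper- than in ENR-organoids, beside 18.2% of all genes. Ifit2 stood at 0.911, 0.777 and 0.537 CPM in the ENR-, 0.984 and 0.919 CPM in the -VE- and 3.58, 2.16 and 2.33 CPM in the Hyper-organoid libraries. For this RNA-binding protein, which inhibits translation, all Hyper-organoid libraries lay above all others, with a log2 fold change of 1.85 ± 0.26 over ENR-organoids (edgeR adjusted p = 0.000534) and 1.5 ± 0.30 over -VE-organoids (0.00429). In stem cells alone neither Ifit2 contrast was called, with 0.93 over ENR-organoids (adjusted p = 0.0295, below 2-fold) and 0.78 over -VE-organoids (0.0602), while both were called in transit amplifying cells (1.84, edgeR adjusted p = 0.000788, and 1.73, 0.00257). Oasl2 stood at 0.238, 0.259 and 0.322 CPM in the ENR-, 0.188 and 0.195 CPM in the -VE- and 0.556, 0.895 and 1.08 CPM in the Hyper-organoid libraries. This member of the oligoadenylate synthetase-like family was higher by 1.62 ± 0.29 over ENR-organoids (edgeR adjusted p = 0.00178) and 2.12 ± 0.34 over -VE-organoids (0.0016), again without overlap. Rsad2 stood at 0.569, 0.71 and 0.657 CPM in the ENR-, 1.07 and 0.925 CPM in the -VE- and 2.43, 1.40 and 1.89 CPM in the Hyper-organoid libraries. Rsad2, the antiviral enzyme viperin, was higher by 1.56 ± 0.23 over ENR-organoids (edgeR adjusted p = 0.000686) and by 0.93 ± 0.26 over -VE-organoids (0.018), the second below 2-fold. Zbp1 stood at 0.124, 0.0752 and 0.203 CPM in the ENR-, 0.248 and 0.28 CPM in the -VE- and 0.265, 0.683 and 0.738 CPM in the Hyper-organoid libraries. Zbp1, a sensor of Z-form nucleic acid, was called against ENR-organoids (2.09 ± 0.49, edgeR adjusted p = 0.00661) but overlapped with the -VE-organoids (1.08 ± 0.51, adjusted p = 0.114).

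Ifit1, the RNA-cap sensor used as a standard readout of type I interferon, behaved otherwise. Ifit1 stood at 0.207, 0.242 and 0.299 CPM in the ENR-, 0.0684 and 0.0183 CPM in the -VE- and 0.434, 0.113 and 0.127 CPM in the Hyper-organoid libraries, that is 3 to 64 UMIs in a library. Hyper- and ENR-organoids overlapped (-0.12 ± 0.58, edgeR adjusted p = 0.87), and both -VE-organoid libraries were the lowest. The contrast of Hyper- with -VE-organoids passed (2.45 ± 0.79, edgeR adjusted p = 0.0335), but it was lost without ENR-organoid library 1 (adjusted p = 0.0505) or 2 (0.0521), without Hyper-organoid library 1 (0.0636) and without -VE-organoid library 2 (0.21). Oas1a, an oligoadenylate synthetase, lay between 0.922 and 2.78 CPM and Isg20, an RNA exonuclease, between 3.28 and 4.98 CPM over the 8 libraries, and neither was called in the 3 comparisons.

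Neither member of the ISG15 system was called over ENR-organoids. Isg15 is a ubiquitin-like protein that is conjugated to other proteins after interferon, and Usp18 removes it and restrains the type I receptor. Isg15 stood at 0.259, 0.284 and 0.513 CPM in the ENR-, 0.0941 and 0.067 CPM in the -VE- and 0.265, 0.259 and 0.485 CPM in the Hyper-organoid libraries, on 11 to 46 UMIs in a library. Hyper- and ENR-organoids overlapped (-0.07 ± 0.38, edgeR adjusted p = 0.881), and the -VE-organoids lay below both. Usp18 lay between 0.0611 and 0.269 CPM on 7 to 26 UMIs, and it was not called across all kept cells.

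The membrane restriction factors held the largest fitted difference among the members tested, that of Ifitm1. These proteins stop viruses at the membrane: the IFITM proteins block fusion and Bst2 (tetherin) holds budding particles. Ifitm1 stood at 0.0518, 0.117 and 0.0478 CPM in the ENR-, 0.12 and 0.341 CPM in the -VE- and 19.4, 35.9 and 10.6 CPM in the Hyper-organoid libraries. Its 3 Hyper-organoid libraries held 2854, 5414 and 1005 UMIs against 4 to 56 UMIs in the other 5, and the log2 fold change was 8.16 ± 0.67 over ENR-organoids (edgeR adjusted p = 3.01e-05) and 6.50 ± 0.68 over -VE-organoids (0.000234). Bst2 stood at 8.55, 9.82 and 10.9 CPM in the ENR-, 15.6 and 20.7 CPM in the -VE- and 54.9, 59.3 and 65.3 CPM in the Hyper-organoid libraries. The 3 groups were apart and ordered ENR, -VE, Hyper, and Bst2 was called in Hyper-organoids over ENR-organoids (2.62 ± 0.13, edgeR adjusted p = 3.64e-06) and over -VE-organoids (1.72 ± 0.15, 0.000103). Ifitm3 stood at 248, 271 and 278 CPM in the ENR-, 405 and 474 CPM in the -VE- and 627, 499.6 and 539.8 CPM in the Hyper-organoid libraries. It was higher in Hyper- than in ENR-organoids by 1.07 ± 0.10 (edgeR adjusted p = 5.37e-05) and in -VE- than in ENR-organoids by 0.73 ± 0.11 (0.00906, below 2-fold). The Ifitm3 call fell below 2-fold without Hyper-organoid library 1 (0.97) and ended in stem cells alone (0.22, adjusted p = 0.226). Ifitm2 was higher in Hyper- than in ENR-organoids by 0.39 ± 0.06 (edgeR adjusted p = 0.000691).

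Both tested interferon-induced GTPases, of 5 listed, were called higher in Hyper-organoids, beside 18.2% of all genes over ENR- and 16.1% over -VE-organoids. They belong to families that attack the vacuoles of intracellular pathogens. Gbp7 stood at 0.155, 0.117 and 0.143 CPM in the ENR-, 0.0856 and 0.0974 CPM in the -VE- and 0.502, 1.23 and 1.43 CPM in the Hyper-organoid libraries. Its log2 fold change was 2.92 ± 0.42 over ENR-organoids (edgeR adjusted p = 0.000547) and 3.50 ± 0.50 over -VE-organoids (0.000962). Igtp stood at 0.331, 0.234 and 0.251 CPM in the ENR-, 0.351 and 0.207 CPM in the -VE- and 0.624, 0.73 and 0.886 CPM in the Hyper-organoid libraries. Its log2 fold change was 1.45 ± 0.28 over ENR-organoids (edgeR adjusted p = 0.00275) and 1.43 ± 0.32 over -VE-organoids (0.00742), the second lost without -VE-organoid library 2 (adjusted p = 0.0645). No Hyper-organoid library overlapped with another group for either gene. Gbp2, Gbp3, Iigp1, Ifit3 and Ifi44 were not tested, because they held at most 12 UMIs in any organoid library. Gbp2 had 9 UMIs over the Hyper-organoids and 0 over the ENR-organoids, which is at least 2.5-fold higher with 3 UMIs over the group as the limit of a count of 0.

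The remaining induced genes were mixed. Rtp4 stood at 0.124, 0.125 and 0.0836 CPM in the ENR-, 0.231 and 0.237 CPM in the -VE- and 0.448, 0.822 and 0.96 CPM in the Hyper-organoid libraries. Rtp4, a receptor chaperone that is induced by interferon, was higher over ENR-organoids (2.71 ± 0.35, edgeR adjusted p = 0.000328) and over -VE-organoids (1.65 ± 0.37, 0.00731), the second lost without -VE-organoid library 2 (adjusted p = 0.0528). Cxcl10 stood at 2.34, 1.68 and 1.28 CPM in the ENR-, 2.93 and 1.61 CPM in the -VE- and 12.1, 2.65 and 5.35 CPM in the Hyper-organoid libraries. Cxcl10, the chemokine that draws T cells through CXCR3, was called over ENR-organoids (1.93 ± 0.53, edgeR adjusted p = 0.0148), with Hyper-organoid library 1 far above the others, and it lost the call without ENR-organoid library 2 (adjusted p = 0.0502) or 3 (0.0518). Ifi27 stood at 3.84, 4.07 and 5.47 CPM in the ENR-, 3.88 and 2.51 CPM in the -VE- and 7.93, 6.23 and 9.09 CPM in the Hyper-organoid libraries. Ifi27, a mitochondrial protein, was higher in each Hyper-organoid library, by 0.80 ± 0.22 over ENR-organoids (edgeR adjusted p = 0.0135, below 2-fold) and by 1.28 ± 0.25 over -VE-organoids (0.00408). Ifi35 was lower in Hyper- than in ENR-organoids by less than 2-fold (-0.51 ± 0.08, edgeR adjusted p = 0.000915), and Xaf1 was not called (between 0.28 and 0.612 CPM).

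**Figure D1:**
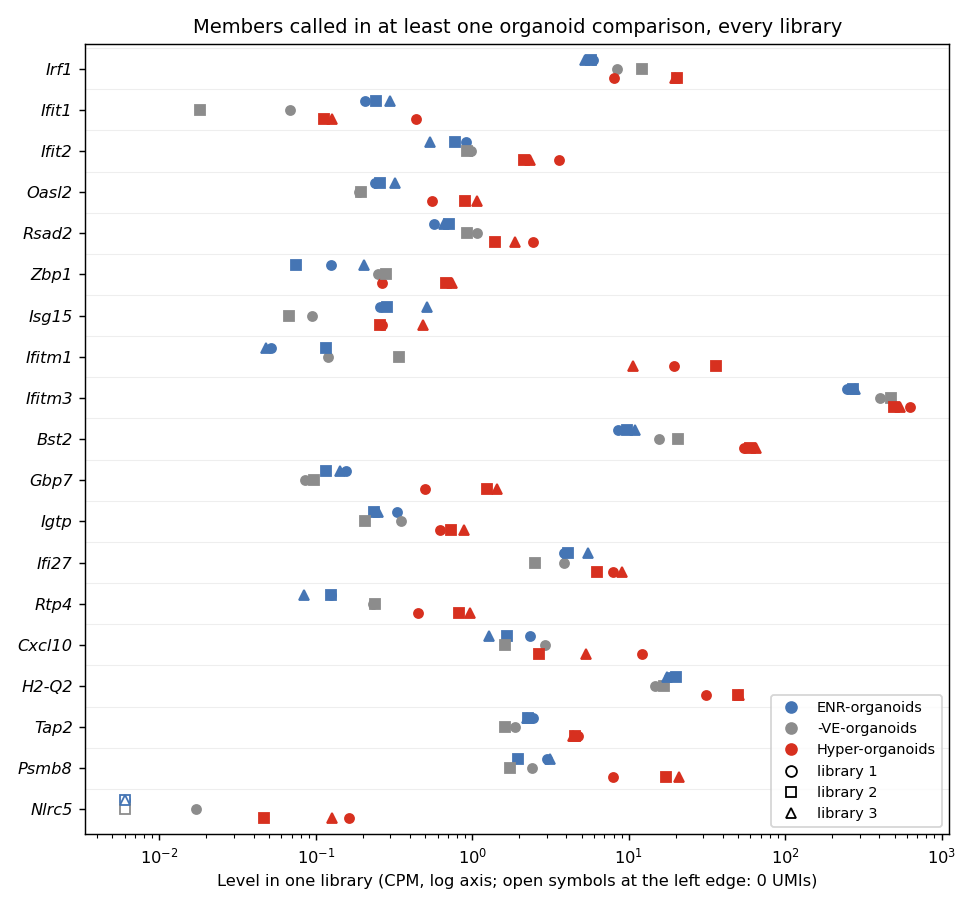
Level of each member called in at least 1 organoid comparison, in CPM on a log axis, with a point per library (blue ENR, gray -VE, red Hyper; the shape gives the library number; open symbols mark 0 UMIs). Ifitm1 separates the Hyper-organoids furthest, and Isg15 and Ifit1 have the -VE-organoids lowest.

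Among the antigen-presentation members, the heavy chain H2-Q2 and the proteasome subunit Psmb8 were called higher over ENR-organoids. The heavy chains H2-K1, H2-D1 and H2-T23 were higher by less than 2-fold, and B2m was not called. With Nlrc5, 3 of 13 members were called higher, near the 18.2% of all genes tested. B2m is the light chain of each class I molecule. B2m stood at 207, 211 and 158 CPM in the ENR-, 214 and 208 CPM in the -VE- and 174, 182 and 147 CPM in the Hyper-organoid libraries. Hyper- and ENR-organoids overlapped (-0.20 ± 0.12, edgeR adjusted p = 0.194). Hyper-organoids were lower in each of the 3 pairs of libraries of the same series, and with the series as a replicate block B2m fell by 0.19 ± 0.04 on the log2 scale (edgeR adjusted p = 0.00895, below 2-fold). H2-K1 stood at 316, 331 and 294 CPM in the ENR-, 391 and 311 CPM in the -VE- and 517, 416 and 407 CPM in the Hyper-organoid libraries, and H2-K1, a classical heavy chain, was higher by 0.51 ± 0.12 over ENR-organoids (edgeR adjusted p = 0.00591, below 2-fold). H2-D1 stood at 149.7, 145 and 129.6 CPM in the ENR-, 153 and 138 CPM in the -VE- and 213, 198 and 200.4 CPM in the Hyper-organoid libraries, and H2-D1, the other classical heavy chain, was higher by 0.53 ± 0.07 (edgeR adjusted p = 0.000372, below 2-fold). For both heavy chains every Hyper-organoid library lay above every other library. H2-Q2 stood at 18.2, 20.0 and 17.6 CPM in the ENR-, 14.6 and 16.7 CPM in the -VE- and 31.3, 49.9 and 50.8 CPM in the Hyper-organoid libraries. H2-Q2, a heavy chain of the Q region, was called over ENR-organoids (1.24 ± 0.17, edgeR adjusted p = 0.000485) and over -VE-organoids (1.49 ± 0.20, 0.000737). The class I heavy chains are near-identical copies in places, so how their reads were split among H2-K1, H2-D1 and the Q and T genes is uncertain. H2-T23 was higher in Hyper- than in ENR-organoids by 0.71 ± 0.14 (edgeR adjusted p = 0.00341, below 2-fold), and H2-Q1 was between 0.434 and 1.52 CPM with no call over all cells.

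The peptide transporter and the immunoproteasome cut and deliver the peptides that class I molecules carry. Psmb8 stood at 3.02, 1.95 and 3.12 CPM in the ENR-, 2.42 and 1.75 CPM in the -VE- and 7.90, 17.4 and 21 CPM in the Hyper-organoid libraries. Psmb8, a catalytic subunit of the immunoproteasome, was called over ENR-organoids (2.52 ± 0.37, edgeR adjusted p = 0.000578) and over -VE-organoids (2.89 ± 0.43, 0.00118), with no overlap. Psmb9 stood at 15.3, 13.4 and 14.5 CPM in the ENR-, 11.1 and 8.23 CPM in the -VE- and 16.5, 13.5 and 14.5 CPM in the Hyper-organoid libraries. Psmb9, another catalytic subunit, was not called over ENR-organoids (0.04 ± 0.12, edgeR adjusted p = 0.78) and was lower in the -VE- than in the ENR-organoids by less than 2-fold (-0.57 ± 0.14, 0.0459). Tap1 stood at 5.53, 5.59 and 5.90 CPM in the ENR-, 5.23 and 4.23 CPM in the -VE- and 8.10, 7.46 and 7.56 CPM in the Hyper-organoid libraries. Tap1, a chain of the peptide transporter, was higher by 0.44 ± 0.10 over ENR-organoids (edgeR adjusted p = 0.0059, below 2-fold). Tap2 stood at 2.43, 2.28 and 2.22 CPM in the ENR-, 1.87 and 1.61 CPM in the -VE- and 4.77, 4.55 and 4.43 CPM in the Hyper-organoid libraries. Tap2, its partner chain, was higher by 0.99 ± 0.11 over ENR-organoids (edgeR adjusted p = 0.00017, just below 2-fold) and by 1.40 ± 0.13 over -VE-organoids (0.000147). Tapbp and Psmb10 were not called, with 17.9 to 28.7 and 26.6 to 68.4 CPM over the 8 libraries.

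Nlrc5, the transactivator of class I genes, was near the limit of detection. It had 0 UMIs in each ENR-organoid library, 2 and 0 UMIs in the -VE-organoids and 24, 7 and 12 UMIs in the Hyper-organoids. The level in Hyper-organoids was at least 11.9-fold higher than in ENR-organoids, with 3 UMIs over the group as the limit of a count of 0, and 16.9 times that of the -VE-organoids (43 against 2 UMIs, exact 95% interval 4.41 to 144, counting error only). Nlrc5 passed the filter on low counts only through the Hyper-organoid libraries, in which it then had to be higher, so its edgeR calls (adjusted p = 0.00893 over ENR- and 0.0322 over -VE-organoids) are given as a description. The second was lost without -VE-organoid library 2 (adjusted p = 0.163) and by DESeq2 (0.0737). Without Hyper-organoid library 1 or 3, or in stem cells alone, Nlrc5 did not pass the filter and was not tested.

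Compared with -VE-organoids, which lack only VPA and EPZ6438, Hyper-organoids had 10 of 25 interferon-induced members called higher and 0 lower, against 16.1% of all genes called higher and 2.51% lower. The median log2 fold change was 0.93, beside 0.01 for all genes. These were Ifit1, Ifit2, Oasl2, Isg15, Ifitm1, Bst2, Gbp7, Igtp, Ifi27 and Rtp4. Without -VE-organoid library 2 the count was 6, since Ifit1, Isg15, Igtp and Rtp4 were lost. Isg15 rose by 2.05 ± 0.48 (edgeR adjusted p = 0.00929), and without that library the value was 1.82 (adjusted p = 0.0823). In stem cells alone the Isg15 value was 2.09, which did not pass either (adjusted p = 0.0782). With the library series as a replicate block Cxcl10 was called in addition (1.55 ± 0.39, edgeR adjusted p = 0.0158). Of the 13 antigen-presentation members 4 were called higher, namely H2-Q2, Tap2, Psmb8 and Nlrc5 (the last through the filter as above), with a median of 0.53, and 0 lower. This comparison and that with ENR-organoids share the Hyper-organoid libraries.

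Between -VE- and ENR-organoids 1 of the 38 tested members was called. Of the 25 tested interferon-induced members 0 were called higher and 1 lower, against 1.35% of all genes called higher and 1.2% lower, and the median log2 fold change was 0.03. The member called was Isg15, which was lower in both -VE-organoid libraries than in every ENR-organoid library (-2.12 ± 0.49, edgeR adjusted p = 0.0376). This call was lost when any of the 3 ENR- or 2 -VE-organoid libraries was left out (adjusted p = 0.0635 to 0.247). With the library series as a replicate block Ifitm1 was also called, higher in -VE-organoids (1.35 ± 0.25, edgeR adjusted p = 0.0257). Bst2 was higher by 0.89 ± 0.14 (edgeR adjusted p = 0.0113) and Ifitm3 by 0.73, both below 2-fold. No antigen-presentation member was called by edgeR or by DESeq2, and the median was 0.04. An unadjusted edgeR p under 0.05 was found for 3 of 13, and the share of all genes with one was not counted.

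**Figure D2:**
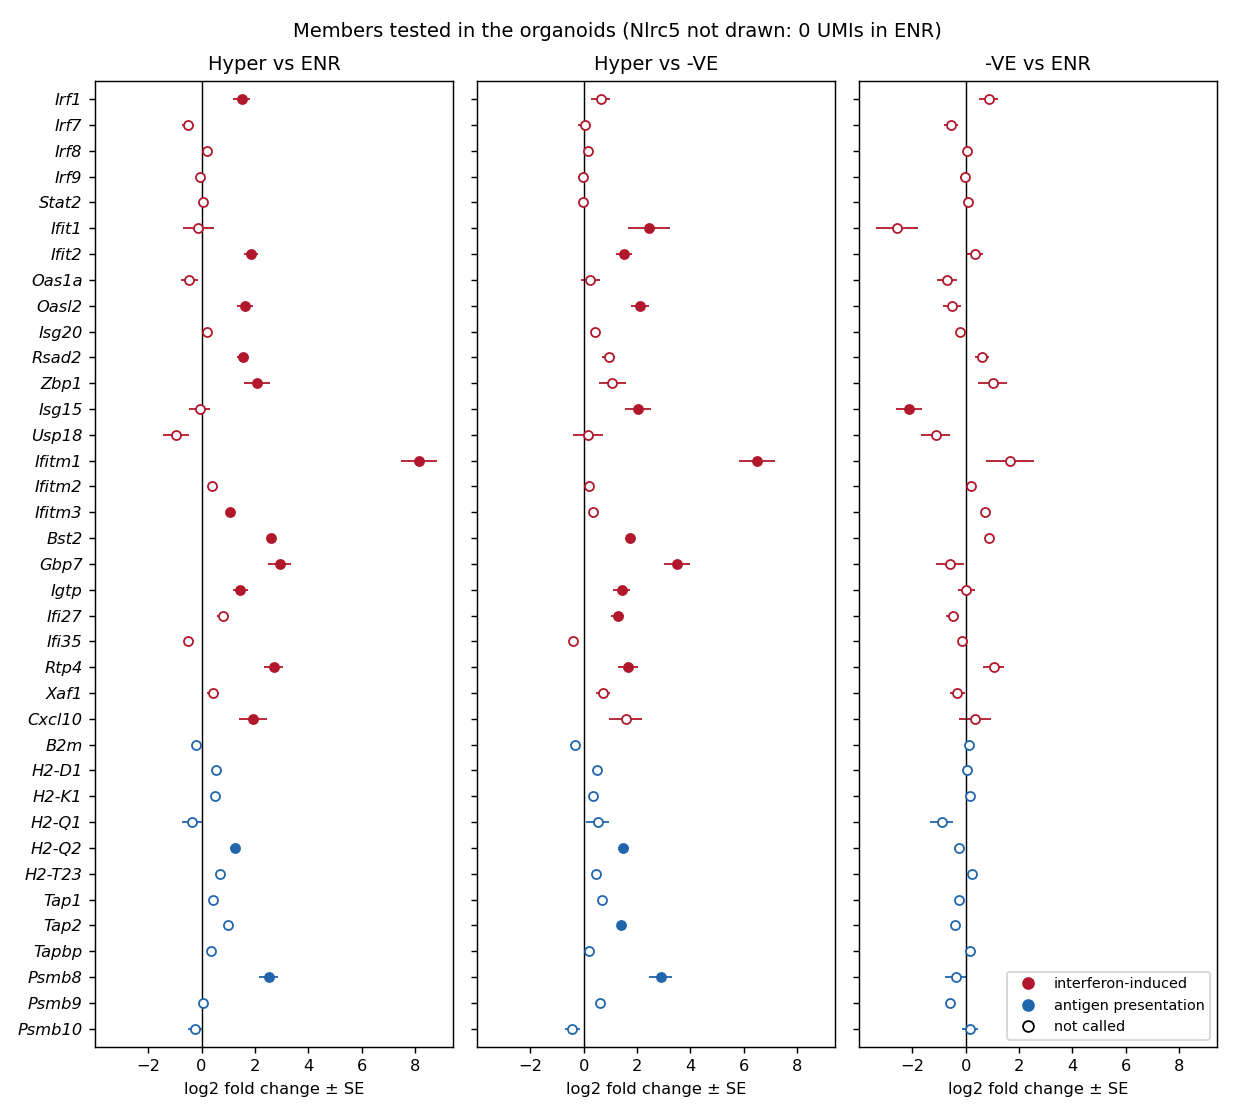
Log2 fold change with its SE (horizontal lines) of each tested member in the 3 organoid comparisons, red for interferon-induced and blue for antigen-presentation genes. Filled points were called, 12 and 3 in Hyper vs ENR with Nlrc5, which is not drawn because it had 0 UMIs in ENR-organoids, and the fitted value then is no bound.

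Of 57 other interferon genes listed from general knowledge, 44 were tested, and 5 were higher and 4 lower in Hyper- than in ENR-organoids, with a median of -0.01, beside 18.2% of all genes higher, 4.75% lower and a median of -0.01. By adjusted p the first were Irf2, Cmpk2, Ifnar2, Irf5 and Tmem173. Irf2, a repressor of interferon-induced promoters, fell by 1.34 ± 0.05 on the log2 scale (edgeR adjusted p = 1.53e-06). Ifnar2, a chain of the type I receptor, rose by 1.20 ± 0.13 (edgeR adjusted p = 0.000114) and Tmem173 (STING), the adaptor for cytosolic DNA, by 2.82 ± 0.41 (0.000568). Against -VE-organoids 7 of 44 were higher and 0 lower, near the 16.1% of all genes called higher, with Irf5, Ifnar2, Socs1, Socs3 and Tmem173 first by adjusted p. Of 24 other antigen-presentation genes, 22 were tested and 5 were higher in Hyper- than in ENR-organoids, namely Cd1d1, H2-T22, H2-M3, Mr1 and H2-Q7. Against -VE-organoids 5 were higher, namely Cd1d1, H2-M3, Mr1, H2-Q7 and H2-T3. Both counts of 5 of 22 stand beside 18.2% and 16.1% of all genes called higher in the same comparisons. Cd1d1, which presents lipids to NKT cells, rose by 3.70 ± 0.22 over ENR-organoids (edgeR adjusted p = 6.76e-06) and was also the only one of these called in -VE- over ENR-organoids (1.18 ± 0.23, 0.0237).

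Members were called higher in Hyper-organoids inside stem cells (SC), transit amplifying cells (TA), goblet cells (GC) and enteroendocrine cells (EE), though not the same members in each. These classes had at least 20 cells in each of the 8 libraries. Passing the filter only through the Hyper-organoid libraries was not checked inside a class, so the class counts below are given as a description. Against ENR-organoids, 10 of 23 tested interferon-induced members were called higher in SC (15.2% of all genes), 12 of 24 in TA (17.2%), 4 of 16 in GC (10.7%) and 5 of 15 in EE (5.96%). In EE 1 member, Usp18, was lower (1.44% of all genes). Of the antigen-presentation members 3 of 12, 4 of 12, 3 of 11 and 1 of 11 were called higher in the same order. Against -VE-organoids, the interferon-induced counts were 8 in SC (14.7% of all genes), 12 in TA (15.5%), 5 in GC (8.72%) and 1 in EE (3.52%), and the antigen-presentation counts 4, 4, 3 and 1. In -VE- against ENR-organoids 1 member was called in a class, Bst2 in TA (1.01 ± 0.14, edgeR adjusted p = 0.011, with 0.694% of all genes higher).

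Ifitm1 was called in each of the 4 classes in both Hyper-organoid comparisons. In goblet cells it stood at 1.14, 0.588 and 0 CPM in ENR-organoids and at 69.8, 124 and 45.6 CPM in Hyper-organoids (6.96 ± 0.64, edgeR adjusted p = 1.53e-05). In -VE-organoid goblet cells it averaged 0.798 CPM. Passing the filter on low counts only through the Hyper-organoid libraries was checked over all kept cells and not inside a class. Class calls of members near 0 CPM in the other libraries, such as this one, are therefore given as a description. Bst2 was called over ENR-organoids in each of the 4 classes. Its level in stem cells was 7.75, 9.65 and 11.7 CPM in ENR- and 62.9, 64.1 and 71.7 CPM in Hyper-organoids (2.69 ± 0.17, edgeR adjusted p = 4.96e-06). Psmb8 and H2-Q2 were called in SC, TA and GC. In stem cells H2-Q2 stood at 9.91, 9.08 and 10.2 CPM in ENR- and 37.3, 59.6 and 61.2 CPM in Hyper-organoids, a log2 fold change of 2.34 ± 0.20 inside the class (edgeR adjusted p = 2.59e-05), beside 1.24 over all cells.

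Some members had a different call over all cells and in a class, a difference that was not tested. H2-Q1 was not called over all cells, but in stem cells it stood at 0.0775, 0.162 and 0.131 CPM in ENR- and 0.402, 1.06 and 1.32 CPM in Hyper-organoids (2.78 ± 0.69, edgeR adjusted p = 0.00872). Whether H2-Q1 passed the filter in this class only through the Hyper-organoid libraries was not checked, so this call is given as a description. In ENR-organoids the mean of H2-Q1 in enterocytes was 9.78 ± 2.13 CPM (SD, n = 3), and Hyper-organoids held fewer of those cells. Ifitm3 was called over all cells but in stem cells the difference was 0.22, with 1.61 ± 0.17 in goblet cells (edgeR adjusted p = 4.29e-05). B2m was not called over all cells, yet in enteroendocrine cells it stood at 128, 133 and 108 CPM in ENR- and 355, 276 and 258 CPM in Hyper-organoids (1.35 ± 0.15, edgeR adjusted p = 0.000202). Usp18 went the other way in these cells, with 19.4, 14.1 and 5.14 CPM in ENR-, 4.68 and 4.46 CPM in -VE- and 0.753, 1.39 and 3.70 CPM in Hyper-organoids (-2.72 ± 0.57, edgeR adjusted p = 0.00941).

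In ENR-organoids, enteroendocrine cells, the hormone-secreting cells of the epithelium, had the highest mean level for 19 of the 28 interferon-induced members with a UMI. These levels are a description without a test, as the classes were clustered on all genes, and these cells were 61 to 79 in a library. The 28 include members with few UMIs, for which the order of the classes is uncertain. Gbp3, counted in the 19, had 1 UMI over the ENR-organoids. Usp18 averaged 12.9 CPM in enteroendocrine cells and at most 0.04 CPM in each other class. Isg20 averaged 59.1 ± 4.88 CPM in enteroendocrine cells (SD, n = 3) and 4.13 ± 0.938 CPM in stem cells, and Rsad2 averaged 18.9 ± 6.63 and 0.291 ± 0.122 CPM. Bst2 was the reverse, with its lowest mean in these cells (1.91 CPM). Ifitm3 was highest in stem cells (519 ± 83.1 CPM) and lowest in enterocytes (14.7 ± 2.20 CPM). Antigen-presentation members were highest in enterocytes for 6 of 13, in enteroendocrine cells for 5 and in enterocyte progenitors for 1, with Nlrc5 at 0. In Hyper-organoids 4 classes had enough cells in every library. Of these, enteroendocrine cells were highest for 17 of 30 interferon-induced and 8 of 13 antigen-presentation members. The 30 also include members with few UMIs, such as Iigp1 with 2 over the Hyper-organoids.

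**Figure D3:**
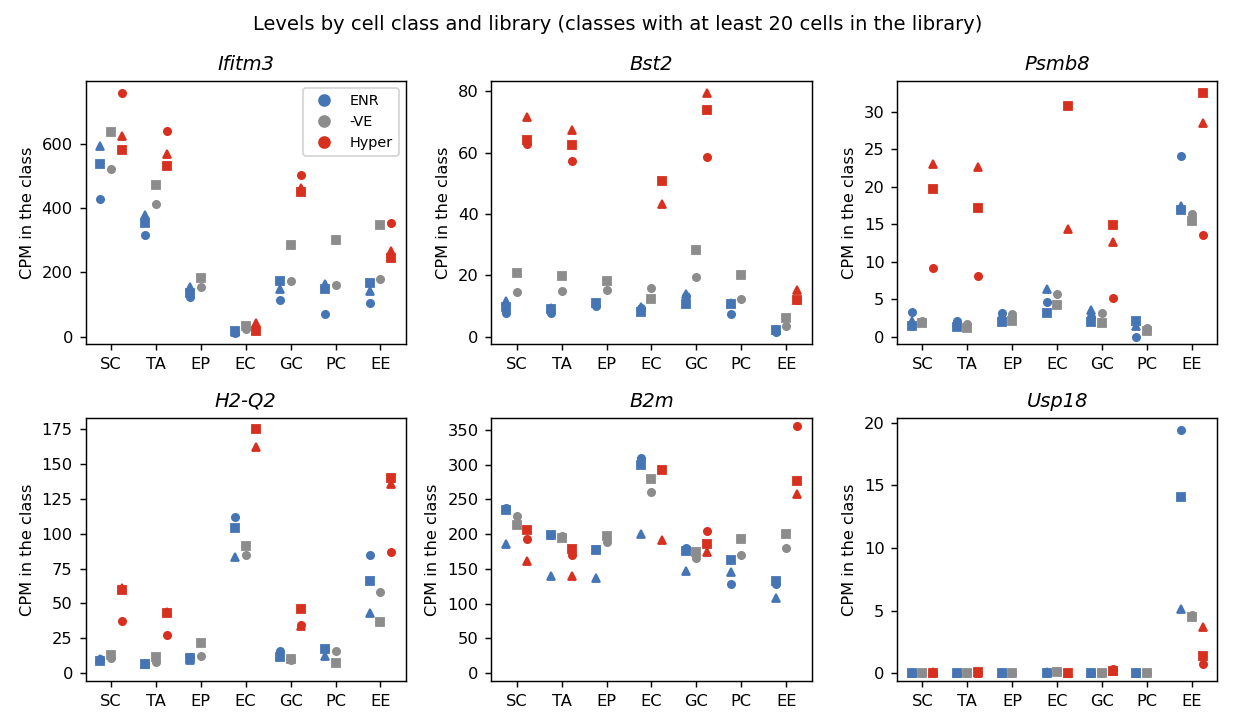
Level in CPM of 6 members by annotated cell class (SC stem, TA transit amplifying, EP enterocyte progenitor, EC enterocyte, GC goblet, PC Paneth, EE enteroendocrine), with a point per library that has at least 20 cells of the class (blue ENR, gray -VE, red Hyper; circles, squares and triangles are libraries 1, 2 and 3). Bst2 was called higher in Hyper- than in ENR-organoids in SC, TA, GC and EE. Usp18 had its highest mean level in EE in ENR-, -VE- and Hyper-organoids.

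In the colonic crypts the DSS library held most of the interferon-induced genes at lower levels than the normal library. There was 1 library per condition, so these are values of 2 libraries without a test, and intervals are exact Poisson intervals at 95% that cover counting error only. Among all kept cells the 30 interferon-induced members had 1 past 2-fold higher and 16 lower in DSS, against 2.5% of 9664 genes higher and 1.7% lower, with a median log2 ratio of -1.41 beside 0.01 for all genes. The 12 antigen-presentation members at a level of 5 CPM had 0 past 2-fold higher and 1 lower, Nlrc5, with a median of -0.66. The leukocyte markers differed between these libraries as given above, so the comparison was repeated outside 6 of 25 clusters in which over 50% of cells held a Ptprc UMI, and without any other cell holding one (leaving out 20.4% of cells in the normal library and 24.6% in the DSS library). There 0 interferon-induced members were past 2-fold higher and 18 lower, against 1.83% of 9384 genes higher and 1.84% lower, with a median of -1.45, and 2 antigen-presentation members were lower, B2m and Nlrc5, with a median of -0.80. The levels that follow are of these cells.

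The ISG15 system had the lowest median ratio of the 10 roles of members. Isg15 stood at 436 CPM (426 to 445) in the normal and 24.5 CPM (22.7 to 26.3) in the DSS library. Usp18 stood at 30.4 CPM (28.0 to 33.0) and 3.59 CPM (2.94 to 4.34). Of the 8 RNA effectors 6 were past 2-fold lower, with Oasl2 at 211 and 25.6 CPM, Ifit1 at 119 and 17.3 CPM and Oas1a at 125 and 39.3 CPM. Ifit3 was at 21.2 and 2.95 CPM, Rsad2 at 24.8 and 8.29 CPM and Zbp1 at 59.1 and 15.9 CPM. None of these intervals overlapped between the 2 libraries. Inside the 5 non-immune clusters found in both libraries, Ifit3, Rsad2 and Zbp1 were past 2-fold lower in none. The other RNA effectors, Ifit2 and Isg20, had log2 ratios of -0.83 and -0.03, and Isg20 was higher in the DSS library in 4 of 5 shared clusters and Ifit2 in 2.

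The transcription factors divided. Irf7, the factor that amplifies type I interferon, stood at 291 and 64.6 CPM and Stat2 at 36.6 and 10.1 CPM in the normal and DSS libraries. Irf1 stood at 69.7 CPM (66.0 to 73.6) and 71.8 CPM (68.8 to 74.9), with overlapping intervals, and Irf8 at 63.9 and 65.7 CPM. Irf9 lay between these pairs, at the median log2 ratio of the 5 factors, -0.84, which is under 2-fold. Bst2 was at 234 and 41.4 CPM, while Ifitm2 was at 195 and 203 CPM and Ifitm3 at 221 and 132 CPM. Of the GTPases, Igtp was at 38.8 and 13.8 CPM, Gbp7 at 8.62 and 3.46 CPM and Gbp3 at 10.6 and 1.75 CPM. Gbp2 (9.68 and 9.02 CPM) and Iigp1 (10.4 and 11.3 CPM) had overlapping intervals. The other members past 2-fold were Ifi44 (45.9 and 3.82 CPM), Rtp4 (80.9 and 14.4 CPM), Xaf1 (63.3 and 11.9 CPM) and Ifi35 (77.3 and 37.1 CPM), and Cxcl10 was at 26.1 and 28.3 CPM.

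Outside the immune clusters B2m and Nlrc5 were the antigen-presentation members past 2-fold, both lower in the DSS library (log2 ratios -1.05 and -1.83), and over all kept cells B2m was at -0.93. B2m stood at 1072 CPM (1057 to 1086) and 517 CPM (509 to 526), Nlrc5 at 7.93 CPM (6.70 to 9.30) and 1.51 CPM (1.10 to 2.02), and H2-K1 at 1068 and 629.8 CPM. Psmb8 was at 108 and 72.3 CPM and Psmb10 at 163 and 145 CPM. The Ifitm1 ratio changed with the cells used. Over all kept cells it stood at 7.84 CPM in the normal and 71.5 CPM in the DSS library, and outside the immune clusters at 5.11 CPM (4.14 to 6.23) and 5.64 CPM (4.82 to 6.56). In the 5 non-immune clusters shared by both libraries it had 0 UMIs in the normal and 1 to 23 UMIs in the DSS library, below the level compared. Cluster 15, in which 68.2% of cells held a Ptprc UMI and which was found only in the DSS library, held it at 7409 CPM.

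**Figure D4:**
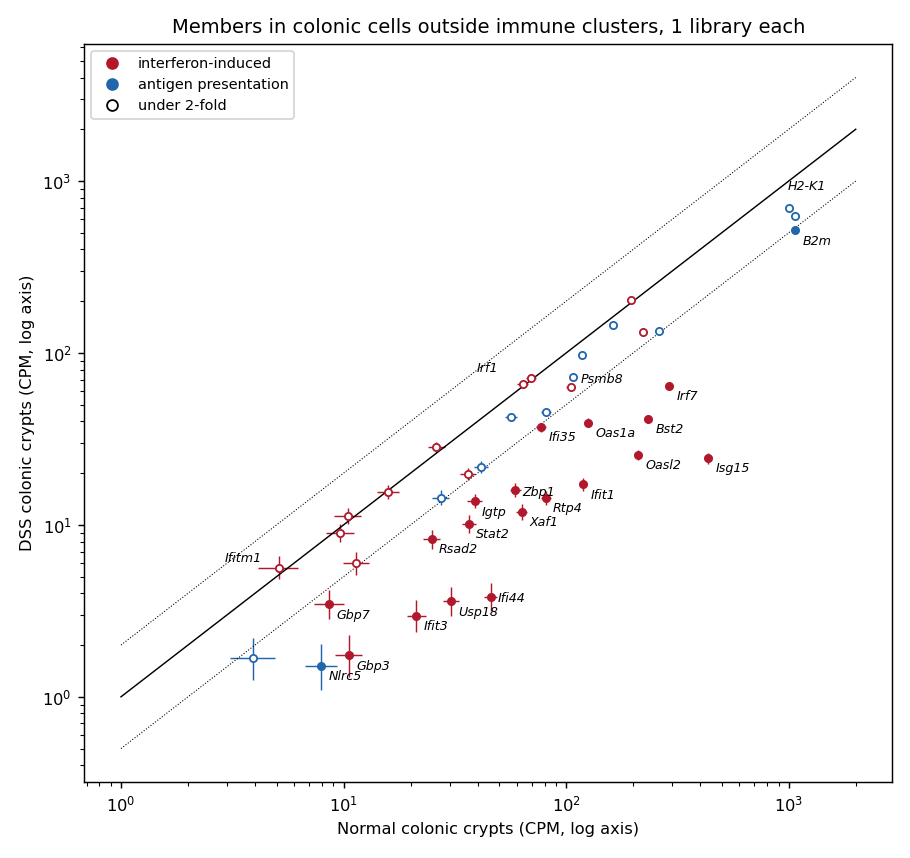
Level of each member in CPM outside the immune clusters in the normal (x) and DSS (y) colonic libraries, both on log axes, with exact Poisson 95% intervals. The solid line marks equal levels and the dotted lines 2-fold, and the 20 filled points past it all lie below, 18 interferon-induced (red) and 2 antigen-presentation genes (blue).

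Clusters of the annotation with at least 20 cells in both colonic libraries were compared, since clusters 3, 12 and 14 were almost wholly from the normal library. Of the 5 such clusters outside the immune ones, Isg15 was lower in the DSS library in 5 and past 2-fold in 4 (log2 ratios -3.48 to -0.96). Oasl2, Bst2 and Xaf1 were also lower in all 5 and past 2-fold in 4. In cluster 1, 0 interferon-induced members were past 2-fold higher and 5 lower of 22 at this level, against 2.3% of all genes higher and 2.91% lower. In cluster 2 the counts were 0 higher and 7 lower of 19, against 3.85% and 5.3% of all genes. In cluster 13 they were 0 higher and 12 lower of 24, against 6.76% and 5.45%. Clusters 5 and 6 also held members past 2-fold higher. Cluster 5 had 4 higher and 12 lower of 27, against 4.57% and 2.4% of all genes, and cluster 6 had 2 higher and 1 lower of 25, against 4.25% and 3.89%. Iigp1 was past 2-fold higher in 2 clusters, and Ifit3, Gbp2, Gbp7 and Cxcl10 in 1 each. Of the 18 interferon-induced members past 2-fold lower over the non-immune cells, 5 were past 2-fold lower in none of these clusters. They were Ifit3 (log2 ratios -0.67 to 1.24), Rsad2 (-0.81 to 0.24), Zbp1 (-0.60 to 0.67), Gbp7 (-0.39 to 1.24) and Ifi35 (-0.66 to -0.41). Among the antigen-presentation members 1 went past 2-fold, Tap1 in cluster 5, where it was higher, while B2m ranged from -0.48 to -0.10 and Nlrc5 from -0.98 to 0.66.

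For an interferon signature, cells were counted that held UMIs of at least 3 of 12 members, after each cell had been thinned to 10000 UMIs. The 12 members were Ifit1, Ifit2, Ifit3, Isg15, Irf7, Ifi44, Oas1a, Oasl2, Rsad2, Usp18, Rtp4 and Cxcl10. Type I and type III interferons both act on ISRE, so the signature does not tell them apart. The type of interferon behind it was not tested. In the organoids the share was 0.15%, 0% and 0.226% in ENR-, 0% and 0.0498% in -VE- and 0.291%, 0.0579% and 0.16% in Hyper-organoids. With 3 cells as the limit of a count of 0, the share is up to 0.12% in ENR-organoid library 2 and 0.13% in -VE-organoid library 1. In the normal colon it was 62.3% (420 of 674 cells, exact binomial 95% interval 58.5% to 66.0%) and in the DSS colon 13.3% (145 of 1093 cells, 11.3% to 15.4%). Thinning left out 458 normal and 840 DSS cells, and unthinned the shares were 60.9% and 23.5%. Unthinned, the 3 Hyper-organoid libraries had 2.35%, 0.624% and 2.07% and the ENR-organoid libraries 0.548%, 0.384% and 0.468%. Free RNA gives UMIs to cells that do not express a gene, and no class of colonic cells was certain to lack these genes, so the shares are of cells holding the UMIs and not of cells expressing the genes. The part of free RNA in them was not tested. The lowest share in a cluster of the normal library at this depth was 15.7%, in cluster 2, and unthinned it was 5.3% in its immune cluster 0, at a median of 3693 UMIs a cell.

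The share differed between clusters within each colonic library. In cluster 3 of the normal library it was 98.7% (96.2% to 99.7%) and in cluster 6 it was 69.2% (54.9% to 81.3%), with 44.6% (35.6% to 53.9%) in cluster 6 of the DSS library. In cluster 1 it was 36.7% and 13.5%, in cluster 2 it was 15.7% and 1.45%, and in cluster 5 it was 27.0% and 0.794%, for the normal and DSS libraries in that order. In cluster 13 it was 30.3% of normal cells and 0 of 40 DSS cells, which allows a share of up to 7.5% with 3 cells as the limit of a count of 0. The normal library was higher in each of these 5 shared clusters, without overlap of the exact intervals at the thinned depth, which cover counting error only. Unthinned, the intervals of cluster 6 overlapped (69.5% to 89.9% in the normal and 59.6% to 74.8% in the DSS library).

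**Figure D5:**
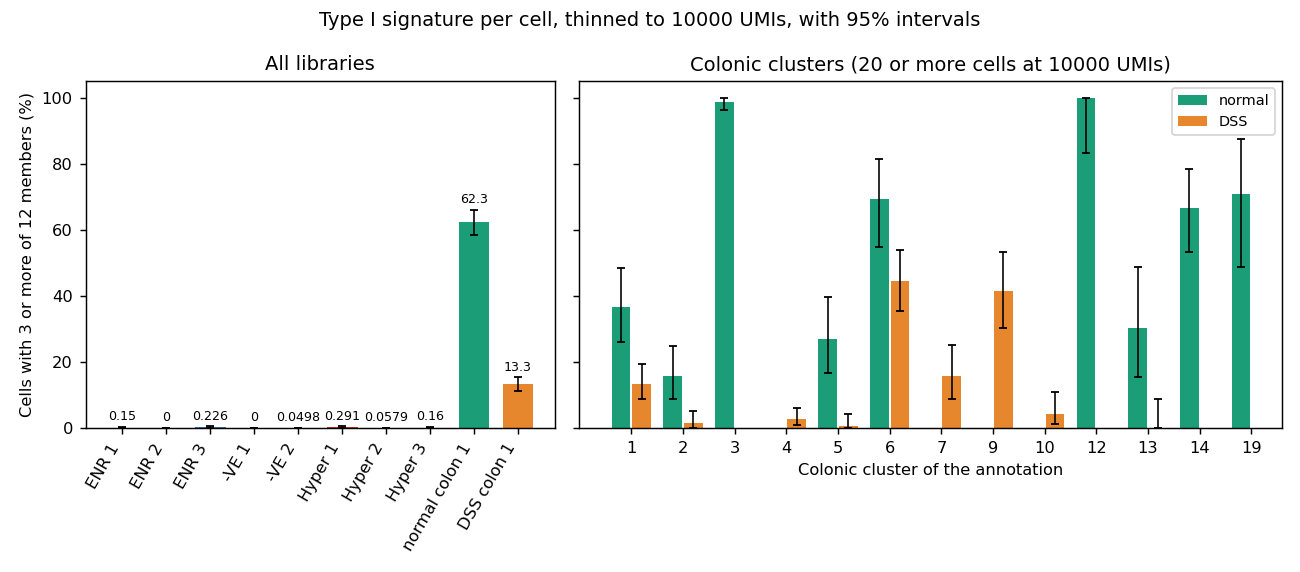
Percentage of cells, thinned to 10000 UMIs, that hold UMIs of at least 3 of the 12 signature members, with exact binomial 95% intervals, in every library (left, values printed) and in each colonic cluster with at least 20 cells at that depth (right, green normal and orange DSS). The organoid libraries lie between 0% and 0.291%, and the normal colonic library at 62.3%.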

How the data were processed

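Organoids and colonic crypts were profiled by droplet single-cell RNA sequencing (10x 3′ v3 kit). The authors aligned reads to mm10 and counted UMIs with Cell Ranger (version 3.0.0 in the processing notes, 3.1.0 per the file headers) and annotated cells in Seurat 3.1.4. The deposited files hold raw UMI counts, and the 25204 annotated cells were kept. All kept cells had at least 501 genes, while the study's methods state 1500 (1375 kept cells had fewer). No column lacked a sample, and no pair of libraries shared more than 5 cell barcodes. No doublet caller was run.

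Counts were summed per library, and per class with at least 20 cells in each library, since cells are not replicates. edgeR 4.0.16 (limma 3.58.1, R 4.3.3; filterByExpr, TMM) was fitted over all 8 organoid libraries with the quasi-likelihood test. A call needed at least 2-fold and an adjusted p (Benjamini-Hochberg, over all genes tested) under 0.05. DESeq2 1.42.0 was an alternative. Organoid library names start with 2, 6 or C, here called the series, and no label says what it marks. Deviations from the group means correlated at 0.268, 0.217 and 0.538 between the 3 same-series pairs of Hyper and ENR libraries, each over 0.1, the threshold taken for pairing. The main fit, which gave each p-value unless a block is named, did not use the pairing. The series was tried as a replicate block beside it. Hyper and ENR pairs of different series lay between -0.411 and 0.192. The highest of these, Hyper-organoid library 1 with ENR-organoid library 2, was also over 0.1. Deviations sum to 0 within a group, so the values of different series partly follow from those of the same series. The pairs with -VE libraries (2 a comparison) correlated at 0.206 and 0.134 with Hyper and at 0.176 and -0.0102 with ENR libraries. On simulated libraries for Hyper vs ENR (15730 genes) the test found 64% of 100 genes changed by 2-fold and 100% of 100 genes changed by 4-fold. Found here means an adjusted p under 0.05 without the 2-fold rule, so these are not rates of calls. The changed genes lay above 5 CPM with a fixed dispersion of 0.05, so the shares do not cover members at lower levels. Colonic libraries (1 each) were compared as CPM with a pseudocount of 1 CPM among genes of at least 5 CPM, without a test. Intervals (95%, exact; Python 3.11.15, numpy 2.4.6, scipy 1.17.1) cover counting error only. Per-library values are given for each member called in an organoid comparison and a set of central genes, colonic values for members past 2-fold, and other genes by count, with at most 5 named per comparison by adjusted p. The members and lists were chosen with earlier results of these data known.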

Additional observations from a re-analysis of the deposited data

How the results depend on the processing

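Of 30 called member results, 421 of 443 values under the alternatives kept their direction and call, 22 kept the direction without the call and 0 reversed. Alternatives in which a gene was not tested gave no value. Nlrc5 had 12 values of 15 in each of its 2 comparisons, and Ifit1 had 14 in Hyper vs -VE. The alternatives include leaving out a library of the group that is not in the comparison. With a replicate left out in turn, the interferon-induced members called ranged from 11 to 12 in Hyper vs ENR, from 6 to 12 in Hyper vs -VE (6 without -VE-organoid library 2) and from 0 to 2 in -VE vs ENR, and the antigen-presentation members from 2 to 4, 3 to 4 and 0 to 0. In -VE vs ENR the interferon-induced count of 1 became 2 with DESeq2 and 0 in stem cells alone. The share of cells with the signature, as a mean of libraries, moved without thinning to 0.467% (ENR-organoids), 0.421% (-VE-organoids), 1.68% (Hyper-organoids) and 23.5% (DSS colon). With at least 2 members it was 0.535%, 0.239%, 1.09%, 74.2% (normal colon) and 27.8% (DSS colon), and with 5000 UMIs a cell it was 0.051% in Hyper-organoids, then below the 0.0735% of ENR-organoids, 51.0% in the normal and 8.82% in the DSS colon. The cause was not tested. The count of genes called in -VE vs ENR was 409, and 70 in stem cells alone, 96 without -VE-organoid library 2, and 252, 151 and 232 without ENR-organoid library 1, 2 and 3.

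The series in the library names was tried as a replicate block. With the replicate block 12 interferon-induced and 3 antigen-presentation members were called in Hyper vs ENR, 11 and 4 in Hyper vs -VE (Cxcl10 added, 1.55, edgeR adjusted p = 0.0158) and 2 (Ifitm1 higher, Isg15 lower) and 0 in -VE vs ENR. Each of the 30 called member results kept its call with the block. Below 2-fold, the block also took Irf7 and B2m in Hyper vs ENR and B2m and H2-K1 in Hyper vs -VE past the adjusted p, and Ifitm3 in Hyper vs -VE out of it. Members with few UMIs (Nlrc5, Ifit1, Isg15) are limited by depth, and each colonic condition by its 1 library.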
